A study of Mus musculus with 6 samples.

Results

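Kinesins are motor proteins that bind microtubules and, in most cases, use ATP to move along them. One part of the family builds the mitotic spindle, moves and aligns chromosomes and finishes cell division, and its genes are known to be transcribed mainly in late cell cycle phases. The rest carry vesicles, organelles, mRNA and ciliary components or trim microtubule ends, and in pigment cells some of these motors carry melanosomes. All genes whose symbol is Kif followed by a digit, with Kifc1, Kifc2 and Kifc3, were taken from the deposited table: 37 genes of 14883. Of these, 12 formed the mitotic set (Kif2c, Kif4, Kif11, Kif14, Kif15, Kif18a, Kif18b, Kif20a, Kif20b, Kif22, Kif23 and Kifc1), and the other 25 the transport or other set. The sets were defined by gene name, and were chosen with earlier results of these data known. Cenpe, also a mitotic kinesin by descent, falls outside the rule by its symbol and is given separately.

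The 6 RNA-seq libraries came from B16F10luc2, a mouse melanoma line of the B16F10 lineage. In the static group (3 libraries) cells grew on elastic-bottomed plates that were not moved. In the stretch group (3 libraries) cells on the same kind of plate underwent 24 h of repeated stretch, equal in both axes, to 15% elongation and with 15 cycles each minute. Both groups shared the medium (DMEM with serum), the culture conditions and the cell line, so the data speak to that line alone. The labels do not say that replicates were separate cultures. The p-values set the group difference against the spread between these libraries, which may be technical. The comparison is of stretched with static cells.

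Library totals ran from 19469286 to 36351400 estimated counts. All 7 melanocyte markers were present, at a summed 22400 to 24779 CPM (read counts after division by TMM-adjusted library size) in static and 19854 to 20445 CPM in stretched libraries. Of the markers of other cell types, 2 of 6 leukocyte markers were measured (1.90 to 2.34 CPM summed in static and 1.53 to 1.88 in stretched libraries), 1 of 4 keratinocyte markers (at most 0.769 CPM) and 1 of 3 endothelial markers (at most 0.588 CPM). For fibroblast markers it was 6 of 7, at a summed 25.1 to 30.4 CPM in static and 23.2 to 25.2 CPM in stretched libraries. The part of these markers in the kinesin results was not tested.

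The sequence around the starts of transcription of kinesin genes is shown first, and its part in the response to stretch was not tested. Genes of late cell cycle are known to carry a hexamer, the cell cycle genes homology region (TTTGAA), which the MuvB complex binds, and often a CCAAT box, bound by NF-Y. Promoter windows from RefSeq (GRCm38.p6, 250 bases before to 50 after the most upstream listed start) were found for 29 of the 37 kinesins, 11 of them mitotic and 18 transport or other. The stretches below run from 100 bases before to 30 after that start, 5′ to 3′ on the gene's strand, and capitals mark each match of TTTGAA or CCAAT on either strand. The first 5 are mitotic kinesins with the hexamer near the start, Kif18a is the mitotic kinesin without it, and Kif21a and Kif3c are non-mitotic kinesins, one higher and one lower under stretch.
Kif11 (GRCm38 chr19:37376282-37376411, plus strand): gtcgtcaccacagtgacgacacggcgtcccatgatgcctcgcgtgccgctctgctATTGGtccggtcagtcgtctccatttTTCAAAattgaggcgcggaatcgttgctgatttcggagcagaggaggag
Kif15 (GRCm38 chr9:122950981-122951110, plus strand): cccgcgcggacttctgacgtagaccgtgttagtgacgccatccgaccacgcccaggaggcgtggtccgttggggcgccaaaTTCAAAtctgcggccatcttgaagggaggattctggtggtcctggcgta
Kif20b (GRCm38 chr19:34922258-34922387, plus strand): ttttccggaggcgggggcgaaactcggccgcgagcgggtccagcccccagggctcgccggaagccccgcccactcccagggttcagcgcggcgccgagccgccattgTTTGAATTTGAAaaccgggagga
Kif22 (GRCm38 chr7:127042391-127042520, minus strand): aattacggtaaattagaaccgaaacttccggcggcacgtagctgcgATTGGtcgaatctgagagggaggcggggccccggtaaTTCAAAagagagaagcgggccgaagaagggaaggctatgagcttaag
Kif23 (GRCm38 chr9:61946770-61946899, minus strand): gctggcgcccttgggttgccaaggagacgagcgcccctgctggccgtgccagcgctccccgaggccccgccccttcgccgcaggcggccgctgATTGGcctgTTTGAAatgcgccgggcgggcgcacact
Kif18a (GRCm38 chr2:109280638-109280767, plus strand): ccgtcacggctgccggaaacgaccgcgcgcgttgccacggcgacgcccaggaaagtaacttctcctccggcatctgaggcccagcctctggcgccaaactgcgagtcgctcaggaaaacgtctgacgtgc
Kif21a (GRCm38 chr15:91049922-91050051, minus strand): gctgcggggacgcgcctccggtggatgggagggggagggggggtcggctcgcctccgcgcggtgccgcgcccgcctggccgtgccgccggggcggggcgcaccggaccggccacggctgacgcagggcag
Kif3c (GRCm38 chr12:3365032-3365161, plus strand): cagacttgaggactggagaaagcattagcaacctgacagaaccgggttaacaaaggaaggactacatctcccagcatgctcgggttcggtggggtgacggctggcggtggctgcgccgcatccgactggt

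The hexamer TTTGAA was found on either strand in 10 of the 11 mitotic windows and in 2 of the 18 transport or other windows. Of all 11665 genes of the table with such a window, 12.4% had it. CCAAT was found in 7 of 11 mitotic and 7 of 18 other windows, against 39.1% of all genes. Both occurred in 7 mitotic windows (Kif4, Kif11, Kif14, Kif18b, Kif22, Kif23 and Kifc1) and in 2 others (Kif26b and Kif27), against 5.4% of all genes. No matches overlapped in the kinesin windows. Within the printed stretch, from 100 bases before to 30 after the start, it was found in 8 of 11 mitotic windows, 2 of 18 others and 4.1% of all genes. In Kif11, Kif15 and Kif22 the match nearest the start began 19, 19 and 17 bases before the start. In Kif20b it occurred as 2 adjacent copies that began at bases 8 and 14 after the start. Kif18a, which had neither sequence in its window, was among the genes that rose. The listed start of some windows lies inside the annotated gene: 1547 bases in for Kif14, 3852 for Kif2c, 9798 for Kif27, 2234 for Kif26a and 1668 for Kif3a. With only windows that start within 500 bases of the gene's 5′ end, a limit chosen after these distances were seen, the hexamer was found in 8 of 9 mitotic windows, in 1 of 15 others and in 12.4% of 9982 genes. Of the printed stretches, that of Kif21a starts farthest in, by 431 bases. A match is a run of letters, and binding was not measured here.

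**Figure D1:**
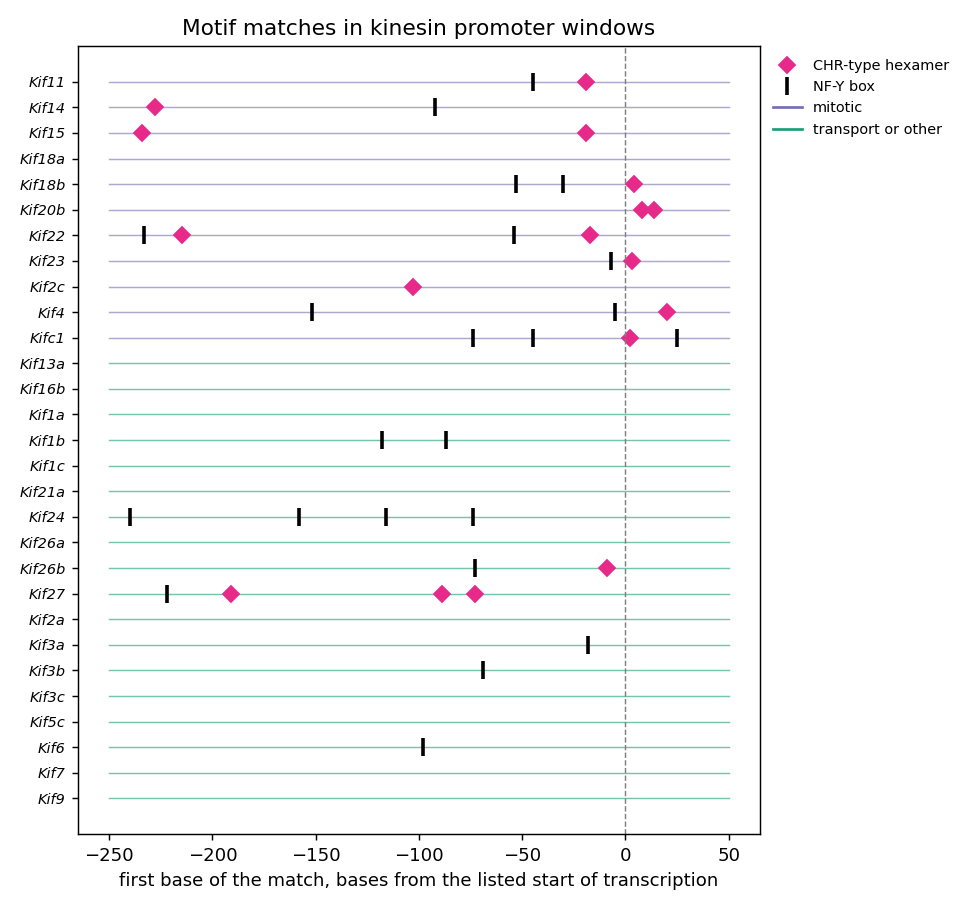
Matches of the cell cycle hexamer (diamonds) and of the NF-Y box (bars) in the promoter window of each kinesin with a RefSeq window, plotted by distance in bases from the listed start of transcription. Diamonds lie on 10 of the 11 mitotic lines and on 2 of the 18 transport or other lines.

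All 12 mitotic kinesins had higher mRNA levels under stretch, and the transport or other kinesins did not move one way. Summed over the 12 mitotic genes, the level was 838, 849 and 867 CPM in static replicates 1, 2 and 3 and 1224, 1218 and 1207 CPM in the stretched ones, a change from 851 ± 14.9 to 1216 ± 8.67 CPM (mean ± SD, n = 3 per group). Summed over the 25 others it was 1504, 1459 and 1537 CPM in the static and 1520, 1506 and 1488 CPM in the stretched libraries. The mitotic genes thus took 36.2% ± 0.507 of kinesin CPM in static and 44.7% ± 0.0856 in stretched libraries. Static and stretched libraries did not overlap in the mitotic sum, and they did overlap in the sum of the others. In bulk RNA, more cells in late cell cycle phases and more of these mRNAs per cell cannot be told apart.

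**Figure D2:**
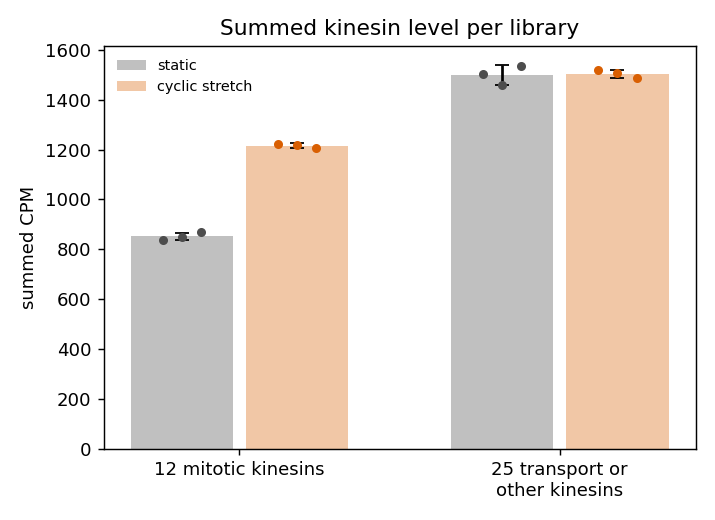
Summed CPM of the 12 mitotic and of the 25 transport or other kinesins, with bars for the group mean, points for the 3 libraries and error bars for the SD. The mitotic sum lay at 838 to 867 CPM in static and 1207 to 1224 CPM in stretched libraries, while the 2 groups of points for the other kinesins overlap.

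Of the 37 kinesins, 33 passed the filter on low counts and were tested, all 12 mitotic and 21 of the others. In edgeR's quasi-likelihood test over all 12377 tested genes, with Benjamini-Hochberg adjusted p under 0.05 as the call, 12 of 12 mitotic kinesins were higher, with a median log2 fold change of 0.48 (range 0.26 to 1.00). Over all tested genes 24.9% were called higher and 25.9% lower (50.9% in all), and the median log2 fold change was 0.004. The groups did not overlap in CPM for 12 of 12 mitotic kinesins, against 58.5% of all tested genes. Of the 21 tested transport or other kinesins, 5 rose and 6 fell, which is 23.8% and 28.6% and close to the shares over all genes. Their median log2 fold change was 0.04, and 13 had no overlap between groups. Scaled by library size alone, 9 of the 21 were higher and 4 lower, and over all genes 4115 were higher and 2402 lower, against 3087 and 3211 with the TMM scaling used here. All 12 mitotic kinesins were called higher under each scaling tried. Against a null of 1.2-fold (glmTreat), 10 of the 12 mitotic and 1 of the 21 others were called, all 11 of them higher. Of all 12377 tested genes, 679 were called higher and 913 lower against that null.

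**Figure D3:**
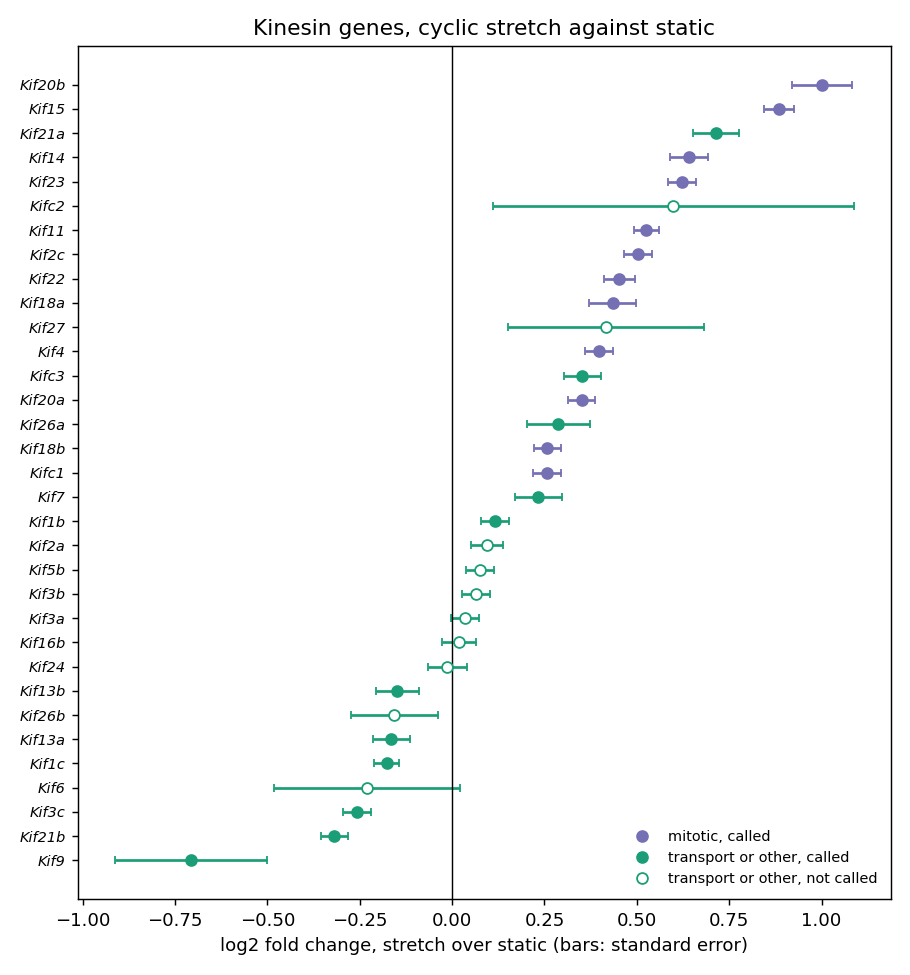
Log2 fold change of stretch over static for the 33 tested kinesins, in order of size, with the standard error as bars and filled points for genes called at adjusted p under 0.05. All 12 mitotic points lie between 0.26 and 1.00, and the transport or other points lie on both sides of 0.

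The motors that set up the bipolar spindle all rose. Kif11 (Entrez Gene 16551; chromosome 19, 37376382 to 37421863 in GRCm38, the build of all positions here), the motor that slides spindle microtubules apart, stood at 134.5, 138 and 138 CPM in static replicates 1, 2 and 3 and 199, 196 and 195 CPM in stretched replicates 1, 2 and 3. No static library reached any stretched library, and the gene rose 1.44-fold, a log2 change of 0.53 with a standard error of 0.0344 (adjusted p = 1.81e-08). Kif15 (Entrez Gene 209737; chromosome 9, 122951081 to 123018733), which can hold the spindle open beside Kif11, stood at 47.7, 47.45 and 49.8 CPM in the static and 90.3, 91.3 and 86.3 CPM in the stretched libraries. It rose 1.85-fold, a log2 change of 0.885 with a standard error of 0.0408 (adjusted p = 4.67e-10), the lowest p among the kinesins. Kifc1 (Entrez Gene 100502766; chromosome 17, 33875664 to 33890633), a minus-end motor that gathers microtubules at spindle poles, stood at 76.3, 73.1 and 79.1 CPM in the static and 90.6, 91.6 and 91.5 CPM in the stretched libraries. It rose 1.195-fold (adjusted p = 7.05e-05), the smallest gain of the set beside that of Kif18b without a correction for GC and length. Kifc5b, a near-identical paralog of Kifc1 outside the rule, stood at 19.95, 17.9 and 22.4 CPM in the static and 27.9, 28.0 and 26.9 CPM in the stretched libraries (adjusted p = 8.71e-05), and the split of counts between these paralogs is uncertain.

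Kif22, Kif4 and Kif2c, which act on chromosomes or at kinetochores, rose by 1.32-fold to 1.42-fold. Kif22 (Entrez Gene 110033; chromosome 7, 127027729 to 127042467), a chromosome-bound motor that pushes arms away from the pole, stood at 58.5, 63.8 and 61.8 CPM in the static and 82.7, 82.8 and 86.3 CPM in the stretched libraries. It rose 1.37-fold (adjusted p = 5.65e-07), with all stretched libraries above all static ones. Kif4 (Entrez Gene 16571; chromosome X, 100626065 to 100727271), which binds chromatin and later the central spindle, stood at 83.9, 86.9 and 82.1 CPM in the static and 113, 112 and 108 CPM in the stretched libraries and rose 1.32-fold (adjusted p = 8.04e-07). Its exons share 832 bases with Pdzd11 on the other strand, which had a log2 fold change of -0.12. Kif2c (Entrez Gene 73804; chromosome 4, 117159633 to 117182624), which does not walk but takes microtubule ends apart at the kinetochore, stood at 55.7, 55.05 and 53.6 CPM in the static and 76.6, 78.8 and 77.7 CPM in the stretched libraries. Its spread within groups was small, and it rose 1.42-fold (adjusted p = 7.52e-08).

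Kif18a and Kif18b shorten or dampen the growth of spindle microtubules. Kif18a (Entrez Gene 228421; chromosome 2, 109280738 to 109341749), needed for chromosome alignment, stood at 18.2, 20.5 and 20.8 CPM in the static and 26.0, 26.75 and 27.9 CPM in the stretched libraries. It rose 1.35-fold (adjusted p = 4.52e-05). Kif18b (Entrez Gene 70218; chromosome 11, 102905518 to 102925134), which acts on astral microtubules, stood at 73.2, 75.4 and 73.9 CPM in the static and 88.2, 87.25 and 90.5 CPM in the stretched libraries. It rose 1.196-fold (adjusted p = 3.92e-05), and with Kifc1 it was the mitotic kinesin that did not pass against 1.2-fold (glmTreat adjusted p = 0.875 for Kif18b and 0.881 for Kifc1).

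The motors of cytokinesis rose by 1.28-fold to 2.00-fold. Kif20b (Entrez Gene 240641; chromosome 19, 34922335 to 34975750), which acts at the midbody in the last step of division, stood at 45.9, 46.4 and 62.1 CPM in static replicates 1, 2 and 3 and 104, 106 and 102 CPM in stretched replicates 1, 2 and 3. Static replicate 3 lay above the other static libraries, yet far below every stretched library. The gene rose 2.00-fold, the largest gain among the kinesins, a log2 change of 1.00 with a standard error of 0.0815 (adjusted p = 1.53e-07), and without static replicate 3 the value was 1.17. Kif14 (Entrez Gene 381293; chromosome 1, 136466301 to 136555938), which recruits citron kinase to the midbody, stood at 54.0, 49.2 and 58.0 CPM in the static and 86.05, 84.4 and 82.0 CPM in the stretched libraries and rose 1.56-fold (adjusted p = 1.18e-07). Kif23 (Entrez Gene 71819; chromosome 9, 61917277 to 61946810), the motor of the centralspindlin complex, stood at 75.7, 77.9 and 78.2 CPM in the static and 122, 119 and 116 CPM in the stretched libraries. It rose 1.54-fold, a log2 change of 0.62 with a standard error of 0.0373 (adjusted p = 7.74e-09), and its static libraries differed little from each other. Kif20a (Entrez Gene 19348; chromosome 18, 34624624 to 34633277), which brings Plk1 and Aurora B to the central spindle, stood at 114.5, 115 and 109.7 CPM in the static and 147, 142.5 and 143.5 CPM in the stretched libraries and rose 1.28-fold (adjusted p = 1.97e-06). Its exons share 1271 bases with Cdc23 on the other strand, which itself had a log2 fold change of 0.25 (edgeR adjusted p = 6.92e-05). The strand setting was one of the details not given in the sources used here, so reads in the shared part cannot be told apart.

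**Figure D4:**
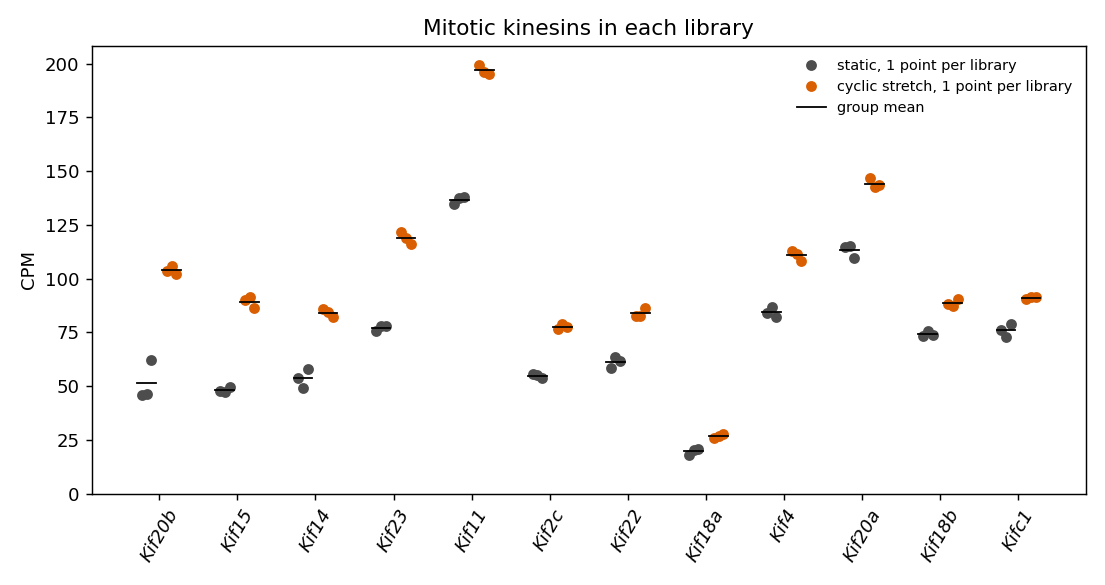
CPM of each mitotic kinesin in the 3 static and 3 stretched libraries (1 point each, line at the group mean), in order of log2 fold change. In all 12 genes every stretched point lies above every static point, and static replicate 3 of Kif20b, at 62.1 CPM, stands above the other static libraries.

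The size of the gain among the 12 mitotic kinesins went with base composition. Across these genes, which share all 6 libraries, Pearson's r of log2 fold change with the GC content of the longest transcript was -0.69, and that with log2 transcript length was 0.48. Kif20b has 39.4% GC, Kif15 42.7%, Kif18b 55.2% and Kifc1 57.0%. Kif18a, at 38.2% the lowest in GC, had a middling gain of 1.35-fold. Over the 33 tested kinesins the r was -0.29 with GC and -0.21 with length, and over all tested genes with a known length it was -0.24 and 0.08. With an offset for GC and length in each library the mitotic median was 0.45, Kif20b had a log2 fold change of 0.85 and Kif15 of 0.80, and all 12 were still called higher. The order of the smaller gains depended on that offset: Kif18a went from 0.435 to 0.24, the smallest gain with the offset, while Kifc1 went from 0.26 to 0.375 and Kif18b from 0.26 to 0.36.

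Cenpe, the kinesin of the kinetochore that helps chromosomes congress, stood at 68.1, 59.1 and 101 CPM in the static and 189, 183 and 185 CPM in the stretched libraries. It rose 2.42-fold (adjusted p = 7.88e-07), more than any gene of the symbol rule, and its static libraries were spread in the way of Kif20b, with replicate 3 highest. Known partners of the mitotic motors were also measured: all 19 of the list (among them the centralspindlin partner Racgap1, the midzone bundler Prc1 and the Kif11 and Kif15 partner Tpx2) rose, by log2 fold changes of 0.27 to 0.59 (median 0.39), against 24.9% of all tested genes called higher. Hmmr, a spindle assembly factor, rose from 92.4 ± 2.09 to 137 ± 4.46 CPM (adjusted p = 2.52e-08). Top2a, which untangles DNA on chromosome arms, rose from 627 ± 22.2 to 889.9 ± 5.825 CPM (adjusted p = 3.09e-08). Kif23's partner Racgap1 rose from 230.5 ± 8.40 to 277 ± 5.23 CPM, or 1.202-fold, against 1.54-fold for Kif23. The citron kinase gene Cit, which Kif14 binds, rose from 24.4 ± 0.258 to 36.8 ± 0.924 CPM, or 1.504-fold, against 1.56-fold for Kif14.

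Among transport motors, the conventional kinesin heavy chain did not pass the test. Kif5b (Entrez Gene 16573; chromosome 18, 6201005 to 6241524), which hauls mitochondria, lysosomes and other cargo toward microtubule plus ends, stood at 407, 385 and 415 CPM in static replicates 1, 2 and 3 and 433, 429 and 410.5 CPM in stretched replicates 1, 2 and 3, and the groups overlapped (log2 fold change 0.08, adjusted p = 0.114). The call depended on the setting: Kif5b was called higher without static replicate 3 (0.10, edgeR adjusted p = 0.0406) and with library size scaling (0.14, adjusted p = 0.0118), and its log2 fold change was -0.056 under a correction for GC and length (adjusted p = 0.18). Its relatives Kif5a and Kif5c, mainly neuronal, had means under 0.5 CPM in both groups and did not pass the filter.

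The heterotrimeric motor of ciliary and vesicle transport is built from Kif3a with Kif3b or Kif3c. Kif3a stood at 88.3, 91.3 and 91.35 CPM in the static and 90.4, 95.45 and 92.3 CPM in the stretched libraries (adjusted p = 0.447), and Kif3b at 64.6, 64.4 and 64.45 CPM in the static and 68.3, 67.8 and 66.0 CPM in the stretched libraries (adjusted p = 0.169). Neither passed the test, although all 3 stretched libraries of Kif3b lay above the static ones. Kif3c (Entrez Gene 16570; chromosome 12, 3365132 to 3406494), the alternative partner of Kif3a, stood at 89.4, 88.6 and 89.7 CPM in the static and 74.55, 72.9 and 76.8 CPM in the stretched libraries. It fell 1.195-fold with no overlap, a log2 change of -0.26 with a standard error of 0.0369 (adjusted p = 4.26e-05). Its exons share 2617 bases with 1110002L01Rik on the other strand, which had a log2 fold change of -0.04. Kifap3, the accessory subunit of this motor, did not pass (46.1 ± 2.28 CPM static and 43.55 ± 1.58 CPM stretched; adjusted p = 0.178).

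The motors of the Kif1 and Kif13 group, which carry vesicle precursors, endosomes and melanosomes, had 5 tested members, of which 3 fell, 1 rose and 1 did not pass, against 25.9% lower and 24.9% higher over all genes. One of the 3 losses, Kif13b, lay at the threshold. Kif1c (Entrez Gene 16562; chromosome 11, 70700396 to 70731970), a fast vesicle motor, stood at 217, 215 and 209.5 CPM in the static and 188, 190.3 and 189 CPM in the stretched libraries. The change was small beside the level: Kif1c fell 1.13-fold, a log2 change of -0.18 with a standard error of 0.0340 (adjusted p = 0.000537). Kif13a (Entrez Gene 16553; chromosome 13, 46749087 to 46929917), known to place recycling endosomes for melanosome maturation in pigment cells, stood at 49.8, 49.8 and 52.45 CPM in the static and 47.3, 46.1 and 41.9 CPM in the stretched libraries and fell 1.12-fold (adjusted p = 0.0125). Without stretch replicate 3, its lowest library, Kif13a had an edgeR adjusted p = 0.0623, and with library size scaling it was 0.114. Kif13b, a related endosome motor, fell from 20.0 ± 0.398 to 18.1 ± 0.490 CPM (adjusted p = 0.0464). That call was lost in 5 of the 6 fits that leave out a library (adjusted p = 0.0588 to 0.172), in DESeq2 (0.162), with upper quartile scaling (0.0719) and with library size scaling (0.222). Kif1b, which carries mitochondria and synaptic vesicle precursors, stood at 104, 104 and 109 CPM in the static and 117, 115 and 111.5 CPM in the stretched libraries and rose 1.08-fold (adjusted p = 0.019). Corrected for GC and length its log2 fold change was 0.025 (adjusted p = 0.561), and the call was also lost without static replicate 1 (0.0836) and without stretch replicate 2 (0.0612). Kif16b, an endosome motor, stood at 58.5 ± 3.34 CPM static and 59.4 ± 1.465 CPM stretched (adjusted p = 0.749), and Kif1a, mainly neuronal, was under 0.4 CPM in every library and did not pass the filter.

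The lowest p in each direction among non-mitotic kinesins belonged to the Kif21 pair, which moved in opposite directions. Kif21a (Entrez Gene 16564; chromosome 15, 90933275 to 91050382), a motor that curbs microtubule growth at the cell cortex, stood at 39.2, 33.9 and 43.1 CPM in static replicates 1, 2 and 3 and 64.0, 65.7 and 62.65 CPM in stretched replicates 1, 2 and 3. The static libraries varied, with replicate 3 highest and replicate 2 lowest, but all lay well below the stretched ones. This order of the static libraries, lowest in replicate 2 and highest in replicate 3, occurred in 12 of the 21 tested non-mitotic kinesins (57.1%), in 3 of the 12 mitotic ones and in 23.7% of all tested genes, and its part in the results was not tested. Kif21a rose 1.64-fold, a log2 change of 0.715 with a standard error of 0.0628 (adjusted p = 3.32e-07), and no other non-mitotic kinesin was called against 1.2-fold. Kif21b (Entrez Gene 16565; chromosome 1, 136131390 to 136178001), its paralog, which pauses microtubule growth, stood at 178.5, 174 and 186 CPM in static replicates 1, 2 and 3 and 143, 143 and 145.5 CPM in stretched replicates 1, 2 and 3. It fell 1.25-fold, a log2 change of -0.32 with a standard error of 0.0368 (adjusted p = 5.2e-06), with no overlap between groups. The pair was singled out after its values were seen. Kif7 (Entrez Gene 16576; chromosome 7, 79698098 to 79715772), which organises the tip of the primary cilium in Hedgehog signalling, stood at 25.7, 23.2 and 27.0 CPM in the static and 31.5, 28.0 and 29.8 CPM in the stretched libraries and rose 1.175-fold (adjusted p = 0.0068). Kif27, its paralog, was near 1 CPM (1.04 ± 0.402 CPM static and 1.396 ± 0.162 CPM stretched; adjusted p = 0.205).

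**Figure D5:**
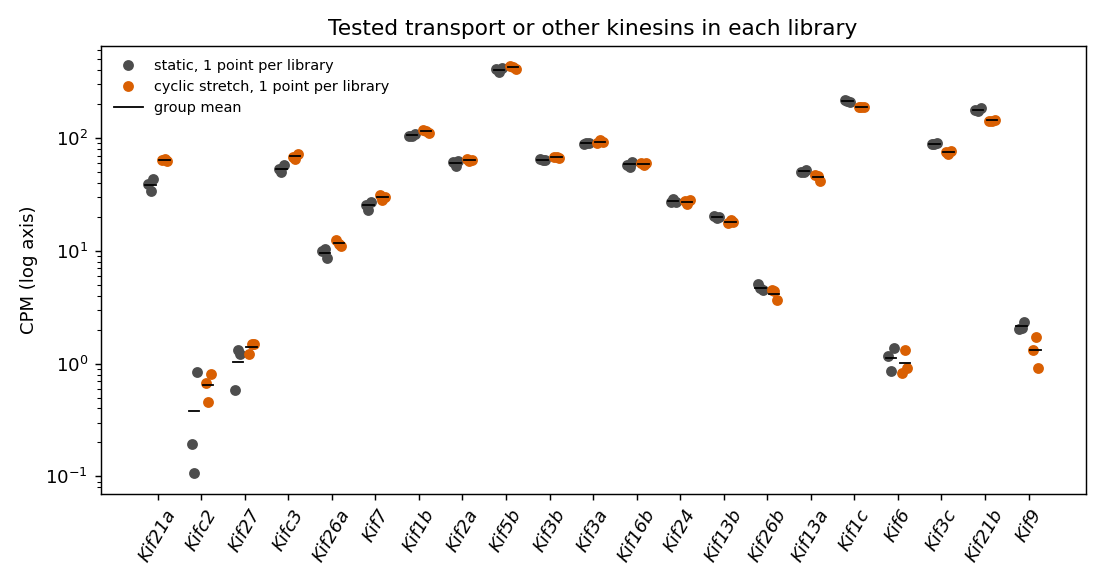
CPM on a log axis of each of the 21 tested transport or other kinesins in the 3 static and 3 stretched libraries (1 point each, line at the group mean), in order of log2 fold change. Kif21a at the left and Kif21b and Kif3c at the right show separated groups, while the points of Kif5b overlap.

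The other non-mitotic kinesins gave 2 further gains and 1 further loss. Kifc3 (Entrez Gene 16582; chromosome 8, 95099828 to 95202826), a minus-end motor linked to cell junctions, stood at 52.8, 50.3 and 57.6 CPM in the static and 68.6, 65.6 and 72.0 CPM in the stretched libraries. It rose 1.28-fold, a log2 change of 0.35 with a standard error of 0.0513 (adjusted p = 4.71e-05). Kif26a, an atypical kinesin without motor activity, stood at 9.95, 10.3 and 8.72 CPM in the static and 12.4, 11.4 and 11.1 CPM in the stretched libraries and rose 1.22-fold (adjusted p = 0.0115). Kif9, a motor known from cilia and flagella, was low, at 2.01, 2.07 and 2.35 CPM in the static and 1.32, 1.72 and 0.911 CPM in the stretched libraries, and fell 1.63-fold (adjusted p = 0.01). Its counts were 39 to 70 per static and 19 to 49 per stretched library.

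Without stretch replicate 1, 2 of the 21 non-mitotic kinesins were called higher, Kif21a and Kifc3. Kif7, Kif26a and Kif1b lost the call at somewhat smaller log2 fold changes of 0.18, 0.23 and 0.099 (edgeR adjusted p = 0.0616, 0.0832 and 0.102), against 0.23, 0.29 and 0.12 with all libraries. Over all genes the number called higher was then 2478, against 3087. Without static replicate 3, Kif26a also lost it (0.0582), and the number called higher was 7, with Kif2a, Kif5b and Kifc2 among them. Uncalled were also Kif2a, which takes microtubule ends apart in interphase and at spindle poles (59.9 ± 3.22 CPM static and 64.2 ± 0.887 CPM stretched; adjusted p = 0.0855), and Kif24, which trims centriolar microtubules (27.7 ± 0.750 CPM static and 27.4 ± 1.22 CPM stretched; adjusted p = 0.861). Exons of Kif2a share 1229 bases with Dimt1 on the other strand, which had a log2 fold change of 0.38. Kif26b, Kif6 and Kifc2, with means of 0.380 to 4.73 CPM, did not pass either (adjusted p = 0.291, 0.47 and 0.324). Kifc2 had 5, 2 and 25 counts in static replicates 1, 2 and 3 and 25, 10 and 17 in stretched ones. Without static replicate 3 it was called higher, with a log2 fold change of 2.01 (edgeR adjusted p = 0.00331). Kif19a, like Kif1a, Kif5a and Kif5c, did not pass the filter.

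Levels can be set against each other only per length, so counts were also divided by the length of the longest transcript. They were expressed as TPM, each gene's share of the summed length-divided counts of its library. Changes between groups in TPM differ from those in the TMM-scaled CPM. Kif24 went from 27.7 to 27.4 CPM but from 13.1 to 13.6 TPM, and Kif3a from 90.3 to 92.7 CPM but from 75.7 to 81.4 TPM. TPM is therefore read here only for the order of genes within a group. Which transcript of each gene was expressed was not determined, so the order of genes rests on annotated lengths. In static libraries Kif5b led at 177 ± 10.1 TPM. Kifc1 (85.6 ± 5.07), Kif1c (84.7 ± 1.26) and Kif20a (81.6 ± 0.933) followed and differed by less than the spread of Kifc1, and then Kif3a (75.7 ± 2.11) and Kif11 (75.1 ± 1.96), which differed by less than theirs. In stretched libraries Kif5b was still first at 195 ± 7.33 TPM, and the next places were all mitotic: Kif11 (113 ± 2.11), Kif20a (109 ± 2.245), Kifc1 (107.5 ± 0.916) and Kif23 (97.1 ± 3.25). Of these, Kif20a and Kifc1 differed by less than the spread of Kif20a. Kif3a (81.4 ± 2.42) and Kif1c (78.6 ± 0.890) came after them. Kif18a and Kif14 were the mitotic kinesins of lowest TPM, at 8.065 ± 0.634 and 15.9 ± 1.615 in static and 11.5 ± 0.312 and 26.1 ± 0.860 in stretched libraries.

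Cargo adaptors, the opposing motor and the tracks were read from lists of known parts. Of 22 tested kinesin light chains and transport adaptors, 7 rose and 7 fell (31.8% each, median log2 fold change -0.06), against 24.9% higher and 25.9% lower over all genes. Klc1, a light chain of conventional kinesin, rose from 126 ± 7.79 to 158 ± 0.3125 CPM (adjusted p = 1.9e-05), while Klc4, another light chain, fell from 35.7 ± 0.654 to 27.8 ± 2.44 CPM (adjusted p = 0.000133). Kifbp, which binds and holds back several kinesins, fell from 54.1 ± 0.851 to 45.6 ± 1.503 CPM, and Spag9, a scaffold that links kinesin to vesicles, rose from 106 ± 4.79 to 125 ± 3.13 CPM. Of 24 parts of cytoplasmic dynein and dynactin, the minus-end motor and its activator, 5 rose and 8 fell (20.8% and 33.3%, median -0.02). Dync1h1, the dynein heavy chain, fell from 1150.0 ± 59.4 to 940.4 ± 32.7 CPM, and Dynll2, a light chain, fell from 253 ± 4.85 to 203 ± 3.08 CPM. Hook3, an adaptor that activates dynein, rose from 48.3 ± 3.45 to 65.3 ± 3.17 CPM, and Dctn6, a dynactin subunit, rose from 23.8 ± 0.825 to 30.7 ± 1.52 CPM.

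Of 20 genes of the ciliary transport complex, whose plus-end motor is the Kif3 motor, 4 rose and 6 fell (median -0.06), against the same 24.9% and 25.9% over all genes. Ift122 and Ift172 fell from 50.75 ± 2.72 to 41.1 ± 1.09 CPM and from 56.0 ± 1.64 to 46.8 ± 0.7585 CPM, while Ift80 rose from 31.3 ± 1.84 to 39.15 ± 1.77 CPM and Ift74 from 19.3 ± 1.07 to 22.9 ± 1.04 CPM. Among 13 tubulin genes 6 rose and 2 fell (46.2% and 15.4%, median 0.09). Tubb4b and Tuba1c, a beta and an alpha tubulin, rose from 366 ± 9.04 to 462 ± 3.36 CPM and from 162 ± 6.49 to 199 ± 2.50 CPM, and Tuba1a fell from 890.1 ± 69.8 to 683 ± 28.1 CPM. Tubg2, a gamma tubulin, fell from 12.9 ± 0.313 to 11.1 ± 0.3885 CPM (adjusted p = 0.0172). Tubulin genes resemble each other closely in sequence, and how reads were divided among them is uncertain.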

How the data were processed

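Expression was compared between 3 static and 3 stretched B16F10luc2 samples, grouped by title. The authors deposited estimated counts per gene as whole numbers without scaling between libraries. The submitters' processing notes name Salmon 1.4.0, mm10 and GRCm38; strand, index and the step from transcripts to genes are details not given in the sources used here. Every gene had at least 10 counts over the 6 libraries. Entrez numbers were named from RefSeq GRCm38.p6 (14875 of 14883 matched). Kif12, Kif17, Kif28 and Kif2b were absent from the deposited counts, so they were not analysed here.

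In edgeR 4.0.16 (R 4.3.3), filterByExpr (minimum count 10) left 12377 genes, TMM factors were 0.966 to 1.02, and a quasi-likelihood model of the group was fitted, two-sided. CPM uses TMM-scaled library sizes. The SE follows from the fold change and its p. Exact tests of 3 against 3 cannot go below p = 0.1. Length and GC came from the longest GENCODE M21 transcript (11782 tested genes). Alternatives were other scalings and filters, DESeq2 1.42.0, limma-voom (limma 3.58.1), glmTreat, a replicate block, a GC and length offset and each library left out.

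All 12 mitotic kinesins were named; of the others, values in each library are given for the called genes with the 5 lowest p in each direction and the 3 uncalled genes of highest CPM, and for each list the 2 called genes of lowest p in each direction. Racgap1, Cit, Prc1, Tpx2 and Kifap3 were named from their lists after their values were seen, and no list gained a member then. Members, lists and motifs were chosen with earlier results of these data known.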

Additional observations from a re-analysis of the deposited data

How the results depend on the processing

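Among the 12 mitotic kinesins, all were called higher in every alternative except glmTreat against 1.2-fold (10). The mitotic median log2 fold change was 0.538 with library size only, and 0.466 to 0.491 over the fits that leave out 1 library. In the transport or other set, 9 were called higher with library size only and 1 with glmTreat, and 2 to 7 when a library was left out. The number called lower was 0 with glmTreat (2 at its unadjusted p under 0.05), 5 in DESeq2, 6 in limma-voom and 4 to 6 when a library was left out. Their median was 0.097 with library size only, 0.016 with no count filter, 0.055 with the 5 CPM filter, -0.053 with the GC and length offset and 0.020 to 0.062 when a library was left out, so it has no stable sign. Over all genes glmTreat called 1592 (679 higher and 913 lower), against 6298 with no minimum fold. Called lower over all genes were 2764 in DESeq2, 3208 in limma-voom and 2675 to 3256 when a library was left out. Called higher over all genes were 4115 with library size only and 2478 to 3075 when a library was left out. Among kinesins, directions changed only for genes not called: with the offset Kif16b (-0.053), Kif2a (-0.069) and Kif5b (-0.056), for Kif24 with library size only (0.047) and upper quartile scaling (0.002), and when a library was left out for Kif16b (-0.016 to 0.063) and Kif24 (-0.034 to 0.019). The cause of these changes was not tested.

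No pairing of libraries by replicate number was seen in expression. Deviations from the group means correlated at -0.01, 0.01 and -0.08 for numbers 1, 2 and 3, and not every library correlated best with its own number. Such correlations cannot show whether libraries of the same number were prepared together. The replicate block called 5967 genes, against 6298 without it, with 12 mitotic kinesins higher and 5 and 5 of the others higher and lower, and Kif13b did not pass (adjusted p = 0.0727). Genes near 1 CPM, such as Kif6, Kif27 and Kifc2, had too few counts for small changes to be detectable.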
